A study of Mus musculus with 6 samples.

Results

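10 genes of heme supply and heme-bound oxygen carriers were followed in mouse muscle, chosen by gene symbol from the deposited count table (10 of 49315 genes). They were Alas1, Alas2 and Fech (heme synthesis), Hmox1 and Hmox2 (heme breakdown), Mb (myoglobin) and Hba-a1, Hba-a2, Hbb-bs and Hbb-bt (the adult globins). Male C57BL6J mice were given virus by intramuscular injection at 5 months of age, and gastrocnemius RNA was sequenced 5 months later. The virus was AAV9-HSA-CAAHR in 3 libraries (replicates 31, 34 and 36), and 3 further libraries (replicates 42, 43 and 46) had AAV9-HSA-GFP. CAAHR is a mouse aryl hydrocarbon receptor (AHR) that lacks its ligand binding domain and is active without ligand, and GFP was the fluorescent protein ZsGreen1. In both vectors the promoter was HSA, that of human skeletal actin (ACTA1), so that expression was directed to muscle fibres and not to blood, vessel or immune cells. Both groups carried a virus, and muscle without virus was not analysed here. The question was whether transcripts for heme supply and transcripts that travel with blood differed between these muscles.

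Heme is an iron-containing ring that is made partly in mitochondria and partly in the cytosol. Its first step is run by aminolevulinate synthase, with Alas1 used in most tissues and Alas2 in red cell precursors, and its last step is run by ferrochelatase (Fech), which inserts the iron. Heme oxygenases open the ring and release iron, with Hmox1 known as the inducible and Hmox2 as the constitutive form. Muscle uses heme in the mitochondrial cytochromes and in myoglobin, which binds oxygen inside oxidative fibres. Hemoglobin RNA in a muscle sample is usually taken to come from circulating young red cells, and cytochrome P450 enzymes such as the AHR target Cyp1a1 also carry heme.

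The 4 adult globin rows come as near-identical pairs, and their sequences are shown because they set how far the rows can be read apart. The coding sequences of Hba-a1 and Hba-a2 (429 bases each) differed at 1 base, C381T (Hba-a1 first), and those of Hbb-bs and Hbb-bt (444 bases each) at 1 base, C417T (Hbb-bs first), with positions counted from 1 at the start codon. Both changes lay at position 3 of their codon, codon 127 for the alpha pair and codon 139 for the beta pair. The stretches around them are given from GENCODE M21 transcripts on GRCm38 with the differing base in capitals, at chr11:32284303-32284383 (+), chr11:32297120-32297200 (+), chr7:103826665-103826732 (-) and chr7:103812656-103812723 (-).
Hba-a1: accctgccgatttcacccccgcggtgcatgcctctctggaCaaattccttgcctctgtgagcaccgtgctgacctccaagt
Hba-a2: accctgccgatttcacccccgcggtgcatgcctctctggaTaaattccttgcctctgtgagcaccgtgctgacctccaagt
Hbb-bs: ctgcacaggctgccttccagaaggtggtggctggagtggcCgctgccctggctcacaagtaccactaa
Hbb-bt: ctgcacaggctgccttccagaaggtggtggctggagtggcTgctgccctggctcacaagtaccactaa
Of all 150-base windows of the main transcript, 51.6% for Hba-a1, 34.3% for Hba-a2, 41.3% for Hbb-bs and 49.3% for Hbb-bt occurred in no other gene. A read from the remaining windows fits more than 1 gene unless its mate places it. The authors counted only unique reads, so reads that fit both copies would be missing from both rows and their sum. Globin levels may thus be too low, and ratios of other genes over them too high. The split within each pair is uncertain, and the sums were read beside the single rows.

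Library totals ranged from 43432994 to 58825752 counts. The AHR target Cyp1a1 and the other 4 AHR targets on the list (Cyp1b1, Ahrr, Nqo1 and Tiparp) were higher in AAV9-HSA-CAAHR muscles (5 of 5 called). CAAHR replicate 34 stood apart from the other CAAHR libraries in slow fibre transcripts. Its mean log2 CPM over the 9 slow fibre markers was 5.39, against 7.49 in replicate 31 and 7.39 in replicate 36, and it was 3.83, 4.30 and 4.83 in GFP replicates 42, 43 and 46. The groups did not overlap in this mean. All fits below that use it as a covariate therefore cannot tell it apart from group. CPM is the TMM-scaled share of a library's counts in parts per 1e6. Of 15847 tested genes, 1205 (7.60%) had an adjusted p under 0.05 (quasi-likelihood test of edgeR, Benjamini-Hochberg adjusted), with 481 higher (3.04%) and 724 lower (4.57%). The groups did not overlap for 29.9% of tested genes.

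All 10 members passed the filter on low counts and were tested. None had an adjusted p under 0.05 by edgeR (0 of 10, against 7.60% of tested genes), and 3 had an unadjusted p under 0.05 (Alas1, Alas2 and Hmox1, against 23.9% of tested genes). DESeq2 called 1 member, Alas1, and limma-voom called 0. The groups did not overlap for 2 members, Alas1 and Hmox1, both lower in AAV9-HSA-CAAHR muscles, and 14.9% of tested genes were lower without overlap. The median log2 fold change was 0.28 over the members and 0.01 over all tested genes, with 7 members above 0 and 3 below. In whole muscle, fewer cells of a type and less RNA per cell cannot be told apart.

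**Figure D1:**
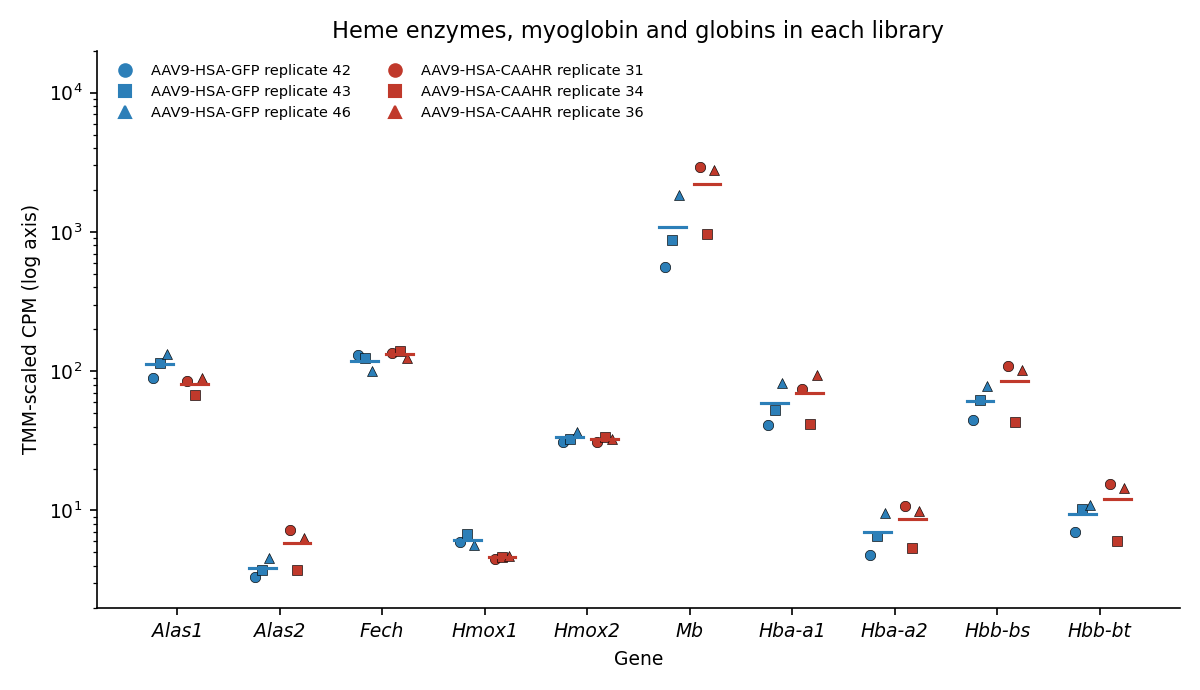
TMM-scaled CPM (log axis) of the 10 genes in each library, with AAV9-HSA-GFP in blue, AAV9-HSA-CAAHR in red, marker shapes for replicates and bars for group means. Only Alas1 and Hmox1 had groups that did not overlap, and CAAHR replicate 34 lay below the other CAAHR libraries for Mb, Alas2 and the 4 globins.

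Levels were compared between genes as CPM per kilobase of exon, with all annotated exons of a gene merged. These lengths were 13838 bases for Fech and 6174 for Alas1, against 667 to 812 for the globins. The order of genes depends on them, and a gene whose muscle transcript is shorter reads too low. Without division by length Fech was at 133 and 118 CPM (CAAHR and GFP means) and Hba-a2 at 8.69 and 6.98. Mb led at a mean of 1108 over the 6 libraries (376 to 1950 per kilobase), and no other member reached its lowest library. The major beta and alpha rows followed, Hbb-bs at 95.2 and Hba-a1 at 79.3 per kilobase, and these neighbours overlapped in range, with Hbb-bs above Hba-a1 in 5 of 6 libraries. Then came Alas1 (15.6), Hbb-bt (15.2), Hmox2 (14.9), Hba-a2 (11.7) and Fech (9.10), and among these 5 each neighbouring pair overlapped in range. Hmox1 (3.07) and Alas2 (2.01) were the lowest and overlapped each other. Hmox1 held 226 to 301 raw counts per library and Alas2 155 to 390.

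Alas1 (ENSMUSG00000032786, chromosome 9, 106233455 to 106248654, GRCm38), the rate-limiting enzyme of heme synthesis outside red cells, was lower in AAV9-HSA-CAAHR muscles without passing the threshold. It was at 84.8, 67.6 and 88.7 CPM in CAAHR replicates 31, 34 and 36, and at 90.1, 115 and 132 CPM in GFP replicates 42, 43 and 46. Each CAAHR value lay below each GFP value, but the gap between CAAHR replicate 36 and GFP replicate 42 was small. Group means were 80.4 ± 11.2 and 112 ± 21.0 CPM (SD, n = 3), a ratio of 0.716. The log2 fold change was -0.48 ± 0.16 (SE), with a 95% interval from -0.83 to -0.13 (edgeR quasi-likelihood test, adjusted p 0.0953). The direction was the same in all 18 alternatives run, from -1.04 to -0.35. Alas1 was called by DESeq2 (adjusted p 0.0364), without a filter on low counts, with either covariate and without GFP replicate 42 (-0.62, edgeR adjusted p 0.0438). The covariates were the slow fibre markers, largely aligned with group, and the summed globins. The antisense gene 4930500F10Rik shares 465 exon bases with Alas1, and without strand information reads of both cannot be told apart.

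Alas2 (ENSMUSG00000025270, chromosome X, 150547375 to 150570638), the erythroid form of the same enzyme, was at 7.26, 3.76 and 6.398 CPM in CAAHR replicates 31, 34 and 36. It was at 3.32, 3.73 and 4.53 CPM in GFP replicates 42, 43 and 46. CAAHR replicate 34 lay inside the GFP range and the other CAAHR libraries above it. The log2 fold change was 0.59 ± 0.24 (edgeR quasi-likelihood test, adjusted p 0.181). Without CAAHR replicate 34 it was 0.81 and passed (edgeR adjusted p 0.0162). With the slow fibre markers as a covariate, largely aligned with group, it was -0.49 (edgeR adjusted p 0.365). The gene Apex2, on the opposite strand, shares 311 exon bases with Alas2.

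Both isoforms were also set as a ratio within each library, which no scaling alters. Counts of Alas1 over Alas2 were 11.7, 18.0 and 13.9 in the CAAHR libraries and 27.2, 30.8 and 29.1 in the GFP libraries. The groups did not overlap, and CAAHR replicate 34 was the CAAHR library nearest to the GFP libraries. On the log2 scale the difference was -1.02 (exact permutation test, two-sided, p = 0.1, adjusted over 4 ratios and shares 0.4). With 3 libraries against 3, 0.1 is the smallest p that the test can give. With 1 library left out the difference ranged from -1.19 to -0.88.

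Fech (ENSMUSG00000024588, chromosome 18), the last enzyme of the pathway, was at 135, 139.7 and 125 CPM in CAAHR replicates 31, 34 and 36 and at 131, 124 and 99.6 CPM in GFP replicates 42, 43 and 46. The groups overlapped. The log2 fold change was 0.17 ± 0.12, with an interval from -0.09 to 0.44 (edgeR quasi-likelihood test, adjusted p 0.424). Counts of Fech over Alas1 were 1.60, 2.07 and 1.41 in CAAHR libraries and 1.45, 1.09 and 0.756 in GFP libraries, which overlapped (exact permutation test, p = 0.2).

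Of the 9 genes of the heme synthesis pathway, 0 were called by edgeR (7.60% of tested genes were). An unadjusted p under 0.05 was found for 3 (23.9% of tested genes), 6 were positive and the median log2 fold change was 0.15. The 3 were Alas1, Alas2 and a further gene of the list, Alad (0.35 ± 0.14). The summed level of the list was alike, 345 to 358 CPM in CAAHR libraries and 344 to 373 CPM in GFP libraries. Fech (0.17) and Alas1 (-0.48) are its largest parts and lay on opposite sides of 0, so an alike sum does not show alike genes. After Fech and Alas1 the most abundant were Urod, uroporphyrinogen decarboxylase, with a log2 fold change of 0.15 ± 0.09, and Cpox, coproporphyrinogen oxidase, with one of -0.04 ± 0.12. The groups did not overlap for 1 of the 9 genes, Alas1, while they did not overlap for 29.9% of all tested genes.

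Hmox1 (ENSMUSG00000005413, chromosome 8, 75093621 to 75100589), the inducible heme oxygenase, was at 4.47, 4.67 and 4.68 CPM in CAAHR replicates 31, 34 and 36. It was at 5.97, 6.78 and 5.68 CPM in GFP replicates 42, 43 and 46. All CAAHR libraries lay below all GFP libraries, and the CAAHR libraries lay close together. The log2 fold change was -0.41 ± 0.13, with an interval from -0.71 to -0.12 (edgeR quasi-likelihood test, adjusted p 0.0918). In the 18 alternatives it stayed between -0.49 and -0.33 and never passed, with adjusted p from 0.0516 to 0.535.

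The summed level of the 10 markers of macrophages, cells that degrade heme, was 26.9 to 46.1 CPM in CAAHR libraries and 53.8 to 118 CPM in GFP libraries. Of the 9 tested, 0 were called by edgeR, 7 had an unadjusted p under 0.05, and all 9 were negative with a median log2 fold change of -1.21. The sum was lowest in CAAHR replicate 34 and Hmox1 in CAAHR replicate 31, though Hmox1 differed little among CAAHR libraries (4.47 to 4.68 CPM). Both were highest in GFP replicate 43 (118 CPM for the sum and 6.78 CPM for Hmox1). Lyz2, the most abundant, had a log2 fold change of -1.35 ± 0.36, followed by C1qa (-1.21 ± 0.32), Csf1r (-0.72 ± 0.33) and C1qb (-1.21 ± 0.47). Of 6 tested neutrophil markers 5 were called lower (S100a8, S100a9, Retnlg, Csf3r and Mmp8), and Cxcr2 (-1.75 ± 0.55) was not called. The part of these cells in the Hmox1 level was not tested. The paper attributes a local immune response in muscle to the AAV-GFP treatment. By qPCR it found selected immune genes no lower in AAV-CAAHR muscle than in muscle without virus. Whether the markers listed here fell with CAAHR or rose with GFP was not tested.

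Hmox2 (ENSMUSG00000004070, chromosome 16, 4726361 to 4766742), the constitutive form, was at 31.01, 33.97 and 32.8 CPM in CAAHR libraries and 30.98, 32.6 and 36.8 CPM in GFP libraries. The groups overlapped, and the log2 fold change was -0.04 ± 0.10, with an interval from -0.25 to 0.18 (edgeR quasi-likelihood test, adjusted p 0.862). Its sign turned to 0.04 with library size only. Counts of Hmox2 over Hmox1 were 6.94, 7.27 and 7.02 in CAAHR libraries and 5.19, 4.80 and 6.48 in GFP libraries, without overlap (exact permutation test, p = 0.1, the smallest possible). The bilirubin-forming reductases Blvra and Blvrb, which act after heme oxygenase, had log2 fold changes of -0.04 ± 0.15 and 0.01 ± 0.20. Hmox2 shares 892 exon bases with Cdip1 on the opposite strand.

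**Figure D2:**
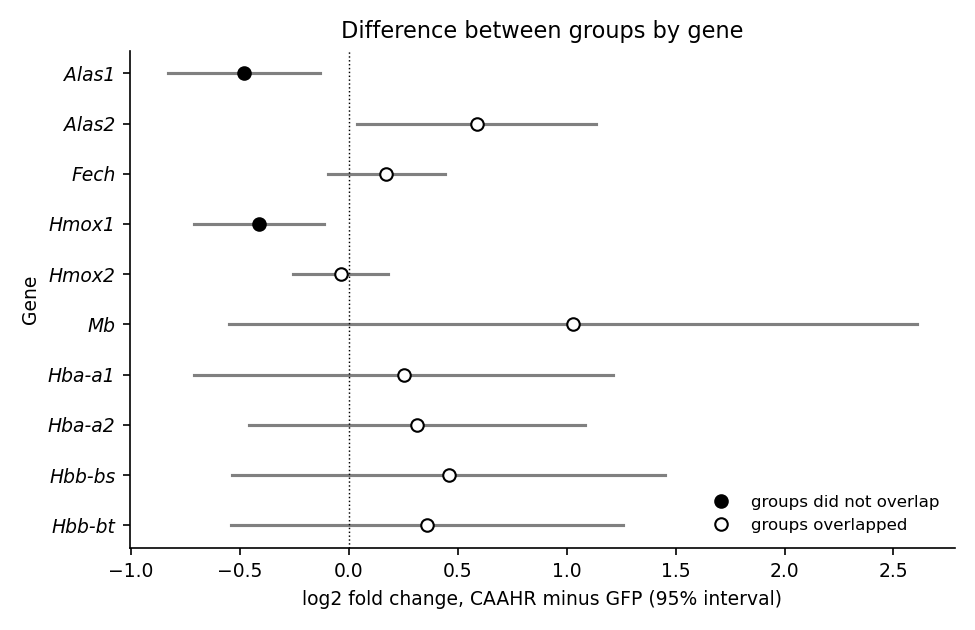
log2 fold change (CAAHR minus GFP) of the 10 genes with 95% intervals, filled where the 3 libraries of one group did not overlap those of the other. The intervals of Alas1, Alas2 and Hmox1 lay off 0, and those of Mb and the globins were the widest.

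Mb (ENSMUSG00000018893, chromosome 15, 77015487 to 77050670), the oxygen store of oxidative fibres, was at 2909, 964 and 2785 CPM in CAAHR replicates 31, 34 and 36. It was at 560.3, 869.6 and 1829 CPM in GFP replicates 42, 43 and 46. CAAHR replicate 34 fell inside the GFP range and the other CAAHR libraries lay above it. Group means were 2219 ± 1089 and 1086 ± 662 CPM (SD, n = 3), and the log2 fold change was 1.03 ± 0.62, with an interval from -0.55 to 2.61 (edgeR quasi-likelihood test, adjusted p 0.393). The interval included 0, so the difference did not stand out from the spread between replicates by this test. Antisense gene Gm49540 shares 412 exon bases with Mb.

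Slow fibre transcripts also differed between libraries. Myh7, which encodes slow myosin, was at 877, 156 and 809 CPM in CAAHR replicates 31, 34 and 36 and at 37.5, 52.6 and 79.5 CPM in GFP replicates 42, 43 and 46. Of 9 slow fibre markers 1 was called higher (Myh7b, log2 fold change 2.56 ± 0.49), all 9 were positive and the median was 2.56. After Myh7 the most abundant were Atp2a2 (2.32 ± 0.49), Myl3 (1.81 ± 0.74) and Tpm3 (1.88 ± 0.50). Of 11 fast fibre markers 3 were called lower, Myl1 (-0.72 ± 0.16), Tnni2 (-0.57 ± 0.14) and Tnnt3 (-0.69 ± 0.15), and the most abundant others were Myh4 (-0.31 ± 0.18), Atp2a1 (-0.01 ± 0.16), Tpm1 (-0.32 ± 0.16) and Actn3 (-0.25 ± 0.16). With the slow fibre markers as a covariate the log2 fold change of Mb was -1.20 (edgeR adjusted p 0.198). Covariate and group are largely aligned, so this value cannot tell them apart.

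Mb did not keep a fixed proportion to Myh7. Counts of Mb over Myh7 were 3.32, 6.17 and 3.44 in CAAHR libraries and 14.9, 16.5 and 23.0 in GFP libraries, without overlap (exact permutation test, p = 0.1, the smallest possible). Mb was also set against Myh1, a fast fibre marker chosen after its values were seen. Counts of Mb over Myh1 were 0.481, 0.463 and 0.523 in CAAHR libraries. They were 0.422, 0.663 and 0.445 in GFP libraries, which overlapped (exact permutation test, p = 1). Myh1 itself was at 6052, 2082 and 5324 CPM in CAAHR libraries and at 1327, 1311 and 4107 CPM in GFP libraries. Its log2 fold change was 0.997 ± 0.65, close to that of Mb (edgeR adjusted p 0.427). Of the 11 fast fibre markers Myh1 was the only 1 with a positive log2 fold change.

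The adult globins carry oxygen in red cells, 2 alpha rows on chromosome 11 and 2 beta rows on chromosome 7. Hba-a1 (ENSMUSG00000069919, 32283511 to 32284465) was at 74.6, 41.7 and 93.6 CPM in CAAHR replicates 31, 34 and 36 and at 40.9, 52.8 and 82.6 CPM in GFP replicates 42, 43 and 46. Hbb-bs (ENSMUSG00000052305, 103826534 to 103828096) was at 108, 43.5 and 102 CPM and at 44.8, 62.0 and 77.8 CPM. Both overlapped between groups, with CAAHR replicate 34 at or near the bottom of all 6 libraries. The lower copies followed the same course, Hba-a2 (ENSMUSG00000069917, 32296489 to 32297298) between 4.81 and 10.8 CPM and Hbb-bt (ENSMUSG00000073940, 103812524 to 103813996) between 6.003 and 15.5 CPM.

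No globin row passed the test. The log2 fold changes were 0.25 ± 0.39 for Hba-a1, 0.31 ± 0.33 for Hba-a2, 0.46 ± 0.40 for Hbb-bs and 0.36 ± 0.37 for Hbb-bt (edgeR quasi-likelihood test, adjusted p from 0.559 to 0.761). The interval for Hbb-bs ran from -0.53 to 1.45. Without CAAHR replicate 34, Hbb-bt was called higher (0.67, edgeR adjusted p 0.0433). With the slow fibre markers as a covariate all 4 turned negative, and Hbb-bs (-1.19, edgeR adjusted p 0.00515) and Hbb-bt (-1.31, edgeR adjusted p 0.0168) were called lower. That covariate is largely aligned with group, so these signs and calls cannot be read as an effect of group.

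Summed, the 4 rows held 0.0220%, 0.00963% and 0.0228% of counts in CAAHR libraries and 0.00960%, 0.0126% and 0.0176% in GFP libraries. The difference of 0.00489 percentage points was within the spread (exact permutation test, p = 0.3, adjusted over 4 ratios and shares 0.4). The ratio of alpha to beta counts was 0.690, 0.949 and 0.887 in CAAHR libraries and 0.882, 0.822 and 1.04 in GFP libraries (exact permutation test, p = 0.6). It differed by -0.0718 between groups, and by 0.00426 without CAAHR replicate 31. Counts of Hba-a1 over Hba-a2 ran from 6.89 to 9.46 and of Hbb-bs over Hbb-bt from 6.07 to 7.25.

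Mb and the globins were set against each other within libraries, since myoglobin is a fibre transcript and globin RNA is usually taken as one of blood. Counts of Mb over the summed globins were 13.9, 9.98 and 12.7 in CAAHR libraries and 5.75, 6.61 and 10.1 in GFP libraries. CAAHR replicate 34 and GFP replicate 46 overlapped. The log2 difference was 0.73 (exact permutation test, p = 0.2, adjusted over 4 ratios and shares 0.4), and with 1 library left out it ranged from 0.56 to 0.97. With the summed globins as a covariate Mb was called higher (0.56, edgeR adjusted p 0.0279). Of the 18 alternatives this was the only 1 in which Mb passed, and with the slow fibre covariate its sign turned (-1.20). Mb itself varied closely with the summed globins over the 6 libraries (Pearson's r of log2 CPM 0.94).

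Other red cell transcripts were close to absent. Of the 13 erythroid markers in the table, 0 passed the filter, no library held more than 11 counts of any of them, and Hemgn was at 0 in all 6. Their summed level was 0.525 to 0.689 CPM in CAAHR libraries and 0.456 to 0.625 CPM in GFP libraries. The most abundant, Slc4a1 (the red cell anion exchanger), held 8, 11 and 11 counts in CAAHR libraries and 5, 5 and 7 in GFP libraries. Over all libraries Klf1 held 3 to 6 counts and Ermap 1 to 9. The 4 embryonic globins Hba-x, Hbb-y, Hbb-bh1 and Hbb-bh2 had 0 counts in every library, Ngb, Hbq1a and Hbq1b did not pass the filter, and cytoglobin (Cygb), found in fibroblast-like cells, had a log2 fold change of -0.47 ± 0.20 (edgeR adjusted p 0.201). Platelet markers (4 tested) and endothelial markers (8 tested) had 0 calls by edgeR, with 1 and 0 at an unadjusted p under 0.05. The platelet genes Gp1ba, Pf4, Itga2b and Ppbp had log2 fold changes of 0.13, -0.47, 0.22 and 1.19, and the endothelial genes Cdh5, Pecam1, Kdr and Tie1 values of 0.10, 0.10, 0.21 and 0.03. Endothelial markers summed to 202 to 280.3 CPM in CAAHR libraries and 204 to 255 CPM in GFP libraries.

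**Figure D3:**
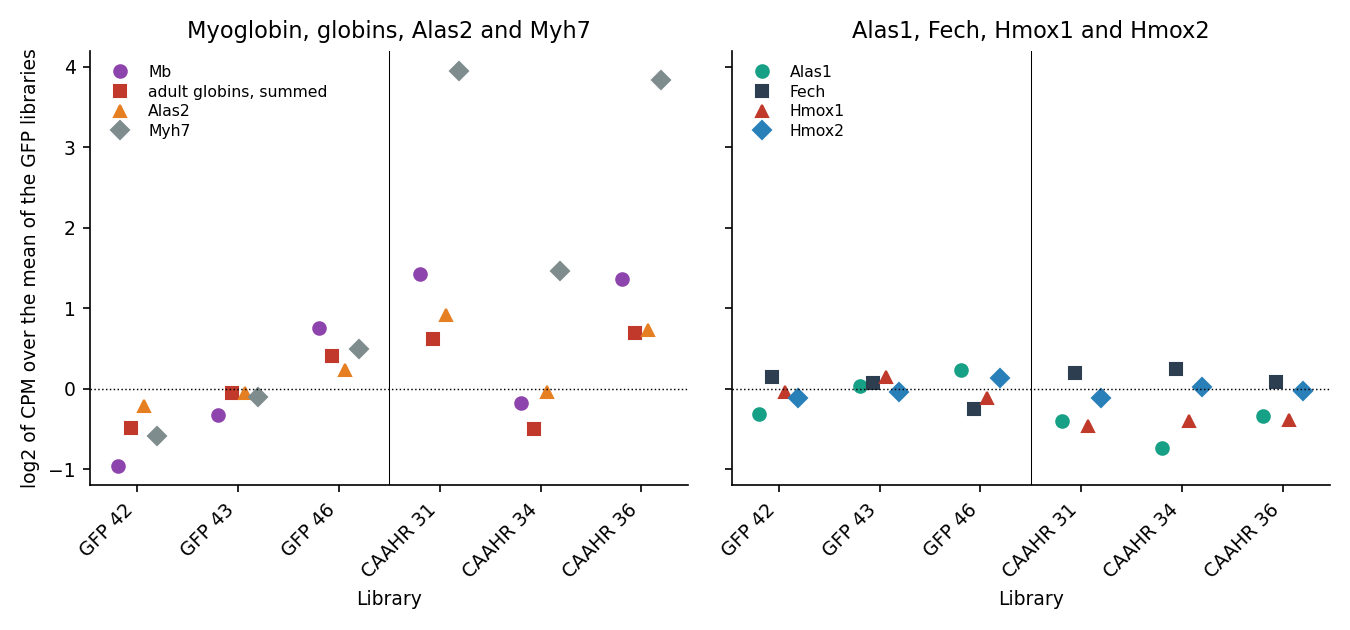
log2 of the CPM of each gene over its mean in the GFP libraries, by library. In the left panel Mb, the summed adult globins, Alas2 and Myh7 were all lower in CAAHR replicate 34 than in CAAHR replicates 31 and 36, and in the right panel Alas1 and Hmox1 lay below 0 in all CAAHR libraries.

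Alas2 ordered the 6 libraries exactly as Mb did, from GFP replicate 42 (lowest) through GFP 43, CAAHR 34, GFP 46 and CAAHR 36 to CAAHR 31. Counts of the adult globins over Alas2 stayed between 25.7 and 39.9 in all 6 libraries and overlapped between groups. Likeness was ranked by Pearson's r of log2 CPM over the 6 libraries among 8866 tested genes with a mean of at least 5 CPM, as a description. All these genes were read in the same 6 libraries, which differ by group and in slow fibre content.

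The gene most like Alas2 was Nceh1, a lipid hydrolase (r 0.999), followed by Inf2, Hadha, Lmcd1 and Khdrbs3. Hadha, a subunit of the mitochondrial fatty acid oxidation enzyme, was at 509.6, 304 and 490.1 CPM in CAAHR libraries and at 274, 305 and 348 CPM in GFP libraries. Genes most like Mb were Evc (r 0.998), Clpb, Igsf8, Acadvl and Mtx2, of which Acadvl begins the oxidation of long-chain fatty acids. The summed globins were most like Pdgfrb, a pericyte and fibroblast receptor (r 0.993), then Ndufab1, Uqcrb, Plbd1 and Ckmt2. Erythroid markers, all under 5 CPM, were not ranked.

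Alas1 was most like the ribosomal protein gene Rps3a1 (r 0.9996), then Rpl6, Thap4, Chchd10 and Rbm38, none of them called. Hmox1 was most like H2-Q4, a class I histocompatibility gene (r 0.994), then Ndrg3, Zfp36l2, Cachd1 and Zfp217. H2-Q4 was at 8.27, 9.28 and 11.1 CPM in CAAHR libraries and at 22.5, 37.1 and 19.5 CPM in GFP libraries, and was lower (log2 fold change -1.46, edgeR adjusted p 0.0139). It belongs to a family of near-identical genes, so its counts are uncertain.

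Heme also needs iron and precursors carried into mitochondria. Of 17 tested genes of heme transport and mitochondrial supply, 1 was called higher (3.04% of tested genes) and 0 lower (4.57%). The groups did not overlap for 7 (29.9% of tested genes), 6 of them higher (15.0% of tested genes), and the median log2 fold change was 0.15. Slc25a37 (mitoferrin-1) brings iron into mitochondria. Its group means were 38.4 ± 7.63 CPM in CAAHR libraries and 24.3 ± 1.38 CPM in GFP libraries. The log2 fold change of Slc25a37 was 0.66 ± 0.14 (edgeR quasi-likelihood test, adjusted p 0.0212). It was at 31.7, 46.7 and 36.8 CPM in CAAHR replicates 31, 34 and 36 and at 25.7, 24.4 and 22.9 CPM in GFP replicates 42, 43 and 46. The highest value was in CAAHR replicate 34, the library with the least Alas2 and Mb of its group. The call was lost without CAAHR replicate 36 (edgeR adjusted p 0.0618), GFP replicate 43 (0.0667) or GFP replicate 46 (0.0904).

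Other genes of this list did not pass by edgeR. Of the genes that follow, DESeq2 called Slc48a1 and Slc25a28, and edgeR with library size only called Slc25a28 and Clpx. Both fits also called Hebp1, a further gene of this list (log2 fold change 0.60 ± 0.17, adjusted p 0.0598 in the main edgeR fit). Among other alternatives, upper quartile scaling called Slc48a1, and limma-voom called Slc25a28 and Hebp1. The related carrier Slc25a28 (mitoferrin-2) had a log2 fold change of 0.44 ± 0.13 (edgeR adjusted p 0.0654), and Clpx, a protease subunit that acts on aminolevulinate synthase, one of 0.29 ± 0.09 (edgeR adjusted p 0.0768). Slc48a1, which moves heme out of lysosomes, had one of -0.37 ± 0.10 (edgeR adjusted p 0.0625), and Slc25a39, which carries glutathione into mitochondria, one of 0.10 ± 0.12. The 3 genes that build heme A or attach heme to cytochrome c, Cox10, Cox15 and Hccs, had values of -0.16 ± 0.15, -0.14 ± 0.13 and 0.25 ± 0.14, and 0 were called by edgeR, with 0 at an unadjusted p under 0.05.

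**Figure D4:**
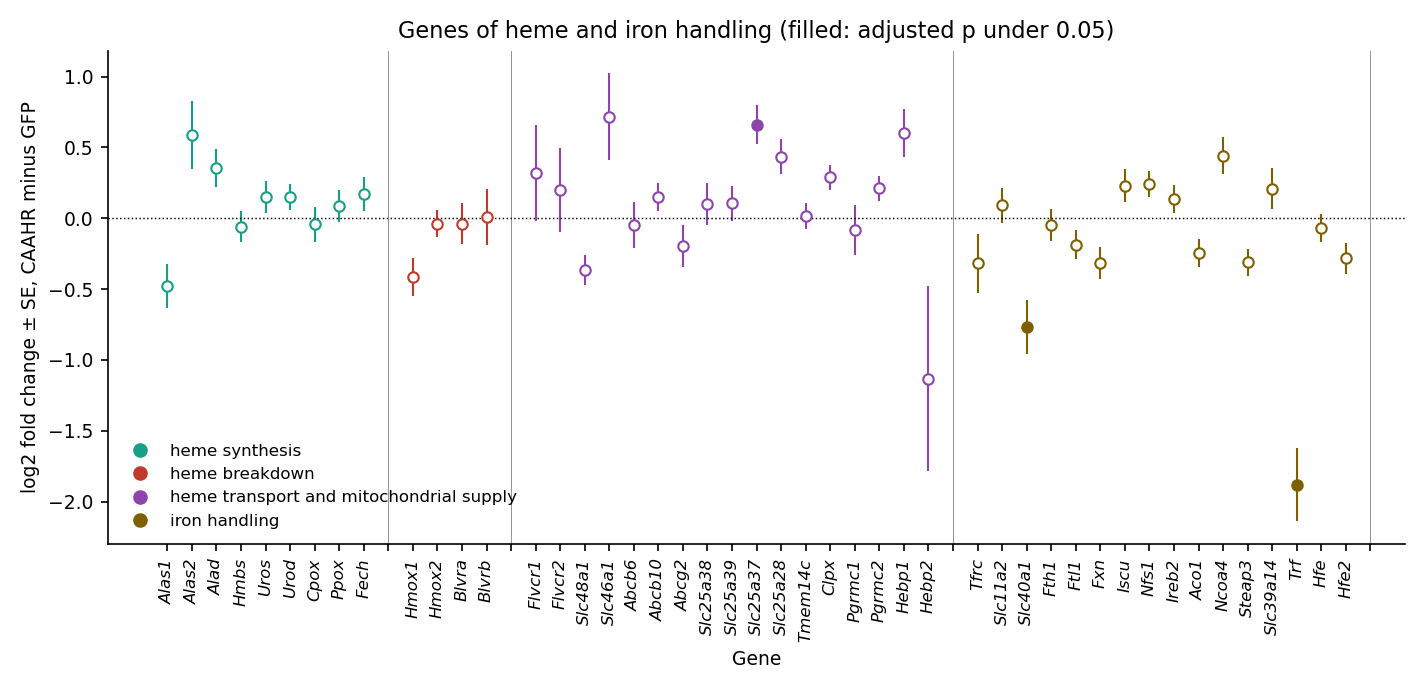
log2 fold change (CAAHR minus GFP) with SE of the tested genes of heme synthesis, heme breakdown, heme transport with mitochondrial supply, and iron handling, filled where the adjusted p was under 0.05. Of these, Slc25a37 was called higher and Slc40a1 and Trf were called lower.

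Of 16 tested genes of iron handling, 0 were called higher (3.04% of tested genes) and 2 lower (4.57%), with a median log2 fold change of -0.13. The groups did not overlap for 8 (29.9% of tested genes), 2 of them higher. An unadjusted p under 0.05 was found for 8 (23.9% of tested genes). Slc40a1 (ferroportin), which exports iron from cells, was at 20.2, 11.6 and 14.8 CPM in CAAHR libraries and at 23.4, 29.2 and 26.8 CPM in GFP libraries. Its log2 fold change was -0.77 ± 0.19 (edgeR quasi-likelihood test, adjusted p 0.0465), and the call was lost with library size only (edgeR adjusted p 0.0725) and without CAAHR replicate 36 (0.152) or any GFP replicate (0.0707 to 0.137). Trf, transferrin, the iron carrier of plasma, was at 2.21, 1.38 and 2.46 CPM in CAAHR libraries and at 8.43, 5.34 and 8.55 CPM in GFP libraries. Its log2 fold change was -1.88 ± 0.26 (edgeR adjusted p 0.00363), and it was called in all 18 alternatives.

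The most abundant iron genes did not pass the test. The ferritin chains Fth1 and Ftl1, which store iron, had log2 fold changes of -0.05 ± 0.11 and -0.19 ± 0.10. The transferrin receptor Tfrc had one of -0.32 ± 0.21, and hemojuvelin (listed as Hfe2), one of -0.28 ± 0.11.

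Heme also acts through regulators. Of 8 tested genes 1 was called (7.60% of tested genes were), Nfe2l2 (NRF2), a factor that switches on antioxidant genes and Hmox1. Nfe2l2 was at 54.4, 57.6 and 59.9 CPM in CAAHR libraries and at 37.5, 40.0 and 28.8 CPM in GFP libraries. Its log2 fold change was 0.69 ± 0.12 (edgeR adjusted p 0.0107), and with the slow fibre covariate it was 0.85 and no longer passed (edgeR adjusted p 0.0827). Bach1, the heme-sensing repressor of Hmox1, had a log2 fold change of -0.02 ± 0.14, the heme-regulated kinase Eif2ak1 one of 0.01 ± 0.10, and the heme-binding receptors Nr1d1 and Nr1d2 values of -0.39 ± 0.18 and 0.08 ± 0.11. Of 9 NRF2 targets 1 was called, Srxn1 (0.81 ± 0.11, edgeR adjusted p 0.00358), and with the slow fibre covariate it was 0.50 and did not pass (edgeR adjusted p 0.206). Of the 9, 4 were positive and 5 negative, with a median log2 fold change of -0.05. Beside the ferritins the most abundant were Me1 (-0.36 ± 0.14) and Txnrd1 (0.31 ± 0.09).

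Promoters from RefSeq (GRCm38.p6) were read for 8 of the 10 members, all but Fech and Hmox1. Those of Alas1, Alas2 and Hba-a1 are printed because Alas1 and Alas2 lay on opposite sides of 0 and the globins varied with Alas2. That likeness was not particular to this pair. Over the 6 libraries the summed globins had r 0.90 with Alas2 and 0.94 with Mb, and Alas2 had r 0.96 with Mb. Capitals mark GCGTG, the core letters that AHR with its partner binds, and GATAA, a motif of erythroid GATA factors, on either strand (CACGC and TTATC). Each run holds 250 bases before the start and 30 from it on, at chr9:106247925-106248204 (-), chrX:150547167-150547446 (+) and chr11:32283422-32283701 (+).
Alas1: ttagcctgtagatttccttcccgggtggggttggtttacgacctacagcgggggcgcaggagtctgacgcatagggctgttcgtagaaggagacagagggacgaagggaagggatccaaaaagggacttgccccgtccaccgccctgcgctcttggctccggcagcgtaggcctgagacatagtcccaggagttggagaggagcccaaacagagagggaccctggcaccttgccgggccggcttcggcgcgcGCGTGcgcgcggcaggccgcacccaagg
Alas2: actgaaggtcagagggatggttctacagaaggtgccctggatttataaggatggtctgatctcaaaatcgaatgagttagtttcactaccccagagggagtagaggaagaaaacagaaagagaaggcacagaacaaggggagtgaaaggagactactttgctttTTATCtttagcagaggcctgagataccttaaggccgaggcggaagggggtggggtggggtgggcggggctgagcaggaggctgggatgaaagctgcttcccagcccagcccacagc
Hba-a1: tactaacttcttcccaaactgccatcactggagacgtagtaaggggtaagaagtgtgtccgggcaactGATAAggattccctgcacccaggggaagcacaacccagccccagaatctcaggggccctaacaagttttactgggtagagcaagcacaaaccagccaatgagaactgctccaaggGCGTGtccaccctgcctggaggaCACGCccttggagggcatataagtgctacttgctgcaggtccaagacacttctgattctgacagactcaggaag
Alas1 held GCGTG at position 3 of the transcript, Alas2 held GATAA at -86, and Hba-a1 held GCGTG at -67 and -44 and GATAA at -182. GCGTG lay in 5 of 13 member windows from 250 bases before the start to 50 after it (some genes have several starts) and in 32.4% of 32851 mouse promoter windows of that length. GATAA lay in 6 of 13 and in 25.4%. The 3 Mb windows held neither, and the windows of Hba-a1 and Hba-a2 shared a run of 297 bases. The Alas1 windows overlap and hold the same GCGTG site. Member windows are therefore not independent, and their counts cannot be set directly against the share of all promoter windows. A match describes letters only.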

How the data were processed

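Messenger RNA was measured by poly(A)-selected, paired-end sequencing of 6 gastrocnemius muscles. The deposited values were whole-number counts of reads per gene that the authors neither scaled nor pooled. The submitters' processing notes name Trimmomatic 0.36, STAR 2.5.2b and the GRCm38 build, and the authors counted only unique reads in exons with featureCounts. Whether the libraries were stranded is not given in the sources used here. Each library was placed in its group by its title. The study describes the libraries as muscles of male mice, 3 for each group. The labels do not say whether a mouse gave more than 1, and p-values measure the spread between these muscles. In the table, 174 rows had no symbol and were kept, and 99.5% of identifiers matched GENCODE M21, which gave positions and exon lengths. Within each group every pair of libraries differed beyond counting noise, with a chi-square of 23.7 or more for each degree of freedom.

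Tests used edgeR 4.0.16 in R 4.3.3, with filterByExpr, TMM scaling and the robust quasi-likelihood F test, with Benjamini-Hochberg adjustment over 15847 genes at 0.05. Intervals (95%) used the moderated degrees of freedom of that test. Ratios and shares were compared with two-sided exact permutation tests, and 4 of them were adjusted together. The other ratios were added after the values were seen, and their p-values are unadjusted. Log2 CPM used a prior count of 2. The members and gene lists were chosen with earlier results of these data known. Named were all members, and from each list the genes with an adjusted p under 0.05 and the 4 most abundant others (1 gene is not reported here), with further genes said to be so. Alternatives were DESeq2 1.42.0, limma 3.58.1 voom with sample weights, other scalings and filters, summed globin copies, library totals without globin and mitochondrial rows, 2 covariates, and leaving out each library. Calculations were tested on simulated data. Counting error alone limits precision at low counts.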

Additional observations from a re-analysis of the deposited data

How the results depend on the processing

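No paired analysis was possible because CAAHR and GFP libraries carry different replicate numbers. Of 180 checks of single members (10 genes under 18 alternatives), 160 kept direction and side of the threshold, 9 kept direction and passed it, and 11 changed sign, of which 2 (Hbb-bs and Hbb-bt with the slow fibre covariate) also passed. Genes called over all tested genes, 1205 as reported, were 1921 with DESeq2 (1199 shared), 2470 without a filter on low counts (1181 shared) and 436 with the slow fibre covariate (249 shared). Leaving out CAAHR replicate 36 gave the lowest count, 530, and leaving out CAAHR replicate 34 the highest, 1727. The split was 358 higher to 990 lower under upper quartile scaling and 876 to 600 under library size only, as the median of all genes moved to -0.06 and 0.09.

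Members called, 0 as reported, were 1 with DESeq2 (Alas1), 2 without a filter (Alas1 and Alas2), 3 with the slow fibre covariate (Alas1, Hbb-bs and Hbb-bt), 2 with the adult globin covariate (Alas1 and Mb) and 0 to 2 with 1 library left out. Called genes of the heme and iron lists, 4 as reported, were 8 with DESeq2, 7 with library size only, 11 without a filter and from 2 to 5 with 1 library left out. The alpha to beta ratio difference ranged from -0.125 to 0.00426 with 1 library left out. Signs that turned were, with the slow fibre covariate, Alas2 (-0.49), Mb (-1.20), Hba-a1 (-1.16), Hba-a2 (-1.05), Hbb-bs (-1.19) and Hbb-bt (-1.31), with the adult globin covariate, Hba-a1 (-0.0652) and Hbb-bt (-0.0485), and with library size only, Hmox2 (0.0434). The adult globin covariate is built from the globin rows themselves, which holds their fold changes under it near 0. Those values are no check of stability, though they are counted among the checks of single members above. With 1 library left out Hmox2 ranged from -0.0887 to 0.0357 (positive without GFP replicate 46) and Hba-a1 from -0.0250 to 0.578 (negative without CAAHR replicate 36). The mean of the slow fibre markers did not overlap between groups, so the covariate and the group are largely aligned and cannot be told apart with 6 libraries. The cause of the other changes was not tested.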
